A study of Mus musculus with 16 samples.

Results

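The comparison described here is the difference between Ednrb -/- mice and their wild-type (WT, Ednrb +/+) littermates that was shared by the proximal and the distal colon. All 16 libraries of the series entered, 8 from each genotype, with 4 libraries of each genotype from each segment. Ednrb -/- mice carry the Ednrb tm1Ywa allele on a hybrid C57BL6/J-129Sv background, serve as a model of Hirschsprung disease and are called HSCR mice. Animals of both sexes were 2 to 4 weeks old. The tissue was the stripped outer wall of the colon, which holds the longitudinal muscle and the myenteric plexus, and poly-A RNA was sequenced. The proximal colon of HSCR mice was the distended, ganglionic part, and the distal colon was the part in which ganglia were missing or sparse. The segment was taken from the sample titles, since the tissue field of the labels read proximal for all 16. Because the allele is carried in all tissues, the design does not separate a change inside enteric neurons and glia from one in muscle or fibroblasts. No source used here says whether a proximal and a distal library came from the same animal, so the p-values measure the spread between these libraries.

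EDNRB is the G protein-coupled receptor for endothelin-3. In the embryo, the receptor keeps migrating enteric neural crest cells proliferating and undifferentiated while they colonise the gut from front to back. When it is lost, the crest cells stop short of the end of the colon, and the distal bowel is left without the ganglia that coordinate its movement. The enteric nervous system is built from neurons that excite or relax muscle, from sensory and interneurons, and from glia that ensheath them. The segments of HSCR mice differ in where ganglia are found by anatomy, but the libraries as labelled did not follow this split, as their neuronal RNA shows.

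Total counts per library ran from 21384372 to 45831881, and mitochondrial genes took 4.32% to 49.8% of them in WT and 5.56% to 20.1% in HSCR libraries. Without mitochondrial genes, 0 genes were called, and 109 were lower and 26 higher in both segments at an unadjusted p under 0.05, against 107 and 25 with them. Smooth muscle genes were high in all 16 libraries, with a list mean of 6.60 to 10.6 log2 CPM, which are read counts scaled to a common library total. The library labelled HSCR distal replicate 1 and HSCR proximal replicate 1 went against their segments. Hoxd13, a Hox gene of the most posterior gut, was at 0.629 CPM in the former against 14.1 to 210 CPM in the other 3 HSCR distal libraries, and at 125 CPM in the latter against 0.643 to 2.49 CPM in the other 3 HSCR proximal libraries. Both are HSCR libraries, so a crossing of the pair would leave the genotype groups as they were, and both were kept under their labels. It would change the values given per segment, the counts shared by both segments and the interaction. In WT libraries, Hoxd13 was at 0.904, 15.3, 19.7 and 23.9 CPM in the proximal and at 112 to 201 CPM in the distal colon. WT distal replicate 1 held little neuronal RNA, with a mean of 1.58 log2 CPM over 19 enteric neuron genes against 3.96 to 6.75 in the other 3 WT distal libraries. HSCR proximal replicates 1 and 2 were as low, at 1.77 and 1.87, as HSCR distal replicate 2, at 1.68, whereas HSCR proximal replicates 3 and 4 and the library labelled HSCR distal replicate 1 stood at 5.93, 5.75 and 5.52. As labelled, the comparison of segments is therefore not one of ganglionic with aganglionic tissue. With HSCR proximal and distal replicate 1 exchanged, the HSCR distal libraries would stand at 1.77, 1.68, 0.390 and -1.09. Of the HSCR proximal libraries, only replicate 2 would then be low. Whether the pair was crossed was not tested. HSCR proximal replicate 2 was rich in epithelium (9.16 log2 CPM over 24 genes) and had the lowest smooth muscle mean. Xist exceeded 1 CPM in 3 libraries of each genotype, and 1 library of each genotype held both Xist and the Y-linked Ddx3y above 1 CPM.

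Ednrb (ENSMUSG00000022122, chr14:104052061-104081838, mm39) was still counted in HSCR libraries. Its level was 67.7, 33.9, 64.2 and 53.0 CPM in the WT proximal libraries and 7.85, 12.6, 36.3 and 35.8 CPM in the HSCR proximal libraries. In the distal colon it was 12.2, 16.1, 28.3 and 40.2 CPM in WT libraries and 97.0, 5.55, 5.83 and 9.57 CPM in HSCR libraries. The HSCR libraries were thus below the WT libraries except for HSCR proximal replicates 3 and 4, which overlapped the lowest WT library, and the library labelled HSCR distal replicate 1, which held more Ednrb RNA than any other. The sources used here do not say which part of the transcript the allele removes and the counts are per gene, so residual reads check neither the allele nor the labels. The log2 fold change was -0.48 ± 0.60 (SE, edgeR quasi-likelihood test, adjusted p = 0.821) over all libraries and -1.47 without the library labelled HSCR distal replicate 1.

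Few differences stood above the spread between libraries once both segments were joined. In the fit over all 16 libraries, with segment as a term, 0 of 18619 genes reached an adjusted p under 0.05 in either direction (0%). Without adjustment, p was under 0.05 for 2020 genes, of which 992 (5.33%) had more and 1028 (5.52%) had less RNA in HSCR mice. The biological coefficient of variation, the spread between libraries of one group relative to the mean, was 0.791. Other tests on the same counts made more calls. DESeq2 called 100 genes higher and 290 lower, the edgeR likelihood ratio test 36 and 137, and limma-voom 0 and 0. The study's own kind of fit, a likelihood ratio test with 4 factors of unwanted variation, called 1332 higher and 1255 lower.

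The smallest adjusted p-values all belonged to genes that were lower in HSCR mice. A set of 8 genes had an adjusted p between 0.0975 and 0.0984 (0.043% of genes tested, against 0% in the other direction): Myrip, Unc13c, Rcan2, Hoxa5, Drd2, Dnajb2, Hoxb5 and Rph3a. The first 5 follow from the rule for named genes, and the last 3 were added after their values were seen. Of these, 3 act on secretory vesicles, 2 are Hox transcription factors, and the others are a dopamine receptor, a calcineurin regulator and a cochaperone. The genes were short of the threshold, and their values are given as such. In bulk tissue, fewer cells of a type and less RNA per cell cannot be told apart. Under the alternatives tried, of which 40 gave a value, the adjusted p of these genes ran from 4.10e-12 to 0.995, and their direction was the same in each in which they were tested.

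**Figure D1:**
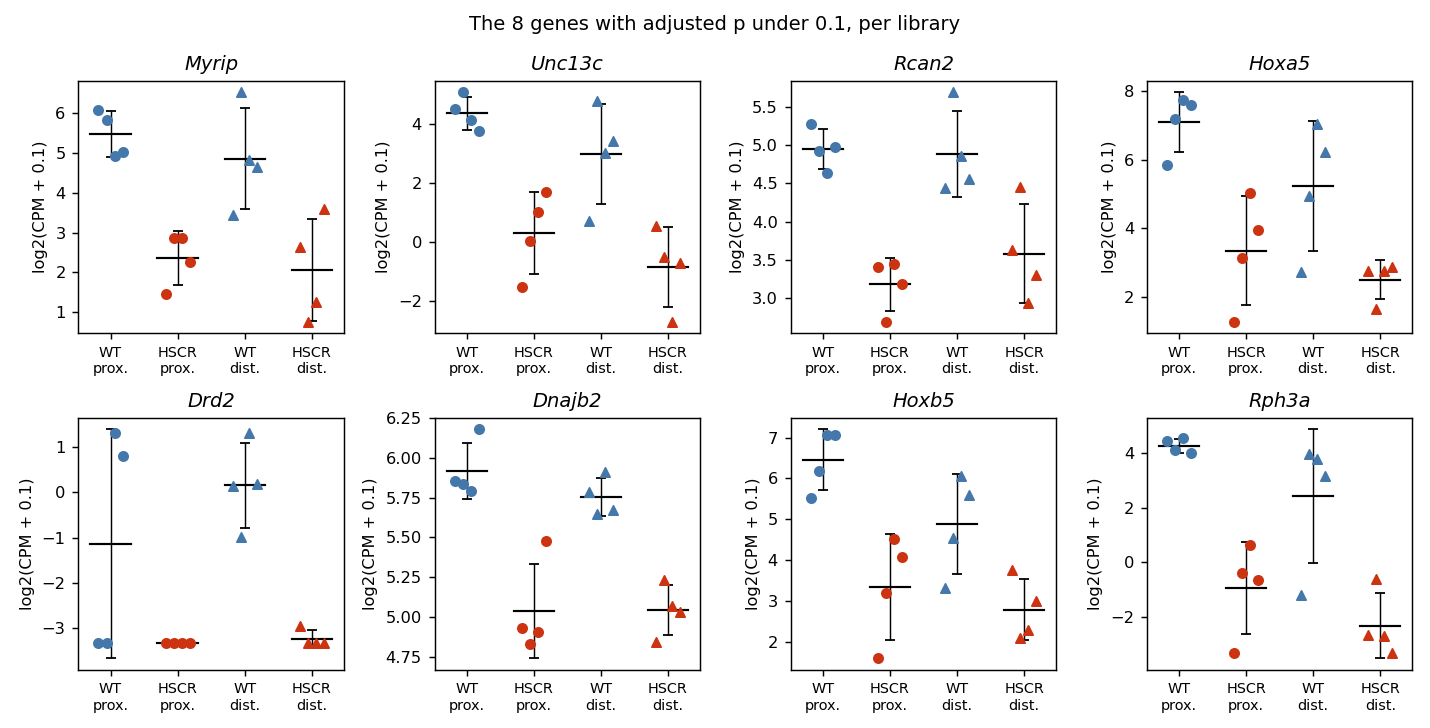
Level of the 8 genes with an adjusted p under 0.1, as log2 of CPM plus 0.1, in each of the 4 libraries per group (blue WT, red HSCR, circles proximal, triangles distal). The bar is the mean and the whisker the SD of 4 libraries. Group means are lower in HSCR mice in both segments for all 8 genes. The genotypes are apart within both segments for Unc13c and Dnajb2 and overlap in 1 segment for the other 6, in the distal colon through WT distal replicate 1 and, for Drd2, in the proximal colon, where WT replicates 1 and 2 had no count.

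Unc13c (chr9:73386704-73876248, mm39) encodes a Munc13 protein that primes synaptic vesicles for release. It was at 22.6, 33.6, 17.4 and 13.5 CPM in WT proximal libraries and at 0.25, 0.914, 1.91 and 3.11 CPM in HSCR proximal libraries. In the distal colon it was at 1.54, 27.2, 8.11 and 10.7 CPM in WT and 1.37, 0.596, 0.054 and 0.507 CPM in HSCR libraries. The genotypes did not overlap within either segment, although WT distal replicate 1 stood just above the highest HSCR distal library. The fitted log2 fold change was -4.02 ± 0.67 (SE, edgeR adjusted p = 0.0975), with -3.81 ± 0.96 for the proximal and -4.23 ± 0.98 for the distal colon. An exact permutation of genotype within segments, two-sided over 4900 arrangements, gave 0.000408, the smallest p this permutation allows, for a gene that was picked from all those tested. It takes proximal and distal libraries as independent, so the p is too small if they came from the same animals.

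Rph3a (rabphilin-3A, chr5:121078562-121148155), a Rab3 effector on synaptic vesicles, was at 21.4, 17.3, 23.4 and 15.98 CPM in WT proximal libraries and at 0, 0.658, 1.47 and 0.537 CPM in HSCR proximal libraries. Its distal levels were 0.334, 15.7, 13.5 and 8.92 CPM in WT and 0.0572, 0.559, 0.054 and 0 CPM in HSCR libraries. Within segments, the genotypes overlapped by WT distal replicate 1. Myrip (chr9:120130579-120303907), which links Rab27a on secretory granules to myosin and actin, was at 67.9, 56.3, 30.2 and 32.5 CPM in WT proximal and 2.65, 7.20, 7.22 and 4.69 CPM in HSCR proximal libraries. It was at 10.8, 91.3, 28.4 and 24.9 CPM in WT distal and 6.09, 1.60, 2.29 and 11.9 CPM in HSCR distal libraries, where the groups overlapped by 1 library. The mean of 8 libraries was 42.8 ± 26.7 CPM in WT and 5.46 ± 3.42 CPM in HSCR mice (SD, n = 8 each), 7.83-fold lower. The edgeR log2 fold changes of -5.34 ± 0.97 for Rph3a and -2.96 ± 0.48 for Myrip (SE, adjusted p = 0.0984 and 0.0975) were -4.86 and -3.10 in the proximal and -5.89 and -2.82 in the distal colon.

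Hoxa5 (chr6:52178734-52181567) and Hoxb5 (chr11:96194162-96196947) encode transcription factors of the fifth paralogue group, and Hoxb5 is known from enteric neural crest cells, where it acts on Ret. Hoxa5 was at 57.03, 145, 215 and 192 CPM in WT proximal libraries and at 2.32, 8.74, 32.6 and 15.2 CPM in HSCR proximal libraries. Its distal levels were 6.45, 30.9, 132 and 74.3 CPM in WT and 6.61, 3.06, 6.58 and 7.15 CPM in HSCR libraries. Within segments, WT distal replicate 1 was the 1 WT library that lay among the HSCR libraries. Hoxb5 was at 46.03, 73.1, 134 and 133 CPM in WT proximal and 2.95, 9.03, 22.9 and 17.0 CPM in HSCR proximal libraries, and at 9.95, 23.3, 66.8 and 48.2 CPM in WT distal and 13.5, 4.21, 4.86 and 7.95 CPM in HSCR distal libraries. On the log2 scale the difference was -3.37 ± 0.57 for Hoxa5 and -2.59 ± 0.47 for Hoxb5 (SE, edgeR adjusted p = 0.0975 and 0.0984). Per length, which is the scale on which genes may be compared, the mean of the authors' FPKM values in WT proximal libraries was 80.2 for Hoxa5, 34.2 for Hoxb5, 8.34 for Myrip and 2.45 for Unc13c.

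Drd2 (chr9:49251927-49319477), the D2 dopamine receptor, was near the detection limit. It was counted in 6 of 8 WT libraries, at 2.37 and 1.64 CPM in WT proximal replicates 3 and 4 and at 1.00, 0.404, 2.37 and 1.03 CPM in the WT distal libraries. Of the HSCR libraries, 1 held 0.0286 CPM and 7 held none. Against a floor of 3 counts per library, the level in HSCR mice was at least 12.7-fold lower than the WT mean of 1.10 CPM. Rcan2 (chr17:44112242-44350407), an inhibitor of calcineurin, was at 21.6 to 51.6 CPM in WT libraries (median of 8 libraries 29.5) and at 6.36 to 21.8 CPM in HSCR libraries (median 10.1). A single pair of libraries, HSCR distal replicate 2 and WT distal replicate 1, overlapped. Dnajb2 (chr1:75213050-75222336), a cochaperone of Hsp70 enriched in neurons, was at 50.05 to 72.4 CPM in the WT libraries and at 28.4 to 44.5 CPM in the HSCR libraries, with no overlap. It was 57.4 ± 6.97 CPM in WT and 33.1 ± 5.48 CPM in HSCR mice (SD, n = 8 libraries each), 1.73-fold lower, the smallest difference of the 8 genes and the one with the smallest spread.

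The sequence before the start of 3 of these genes and of Ednrb is shown because they stand for the vesicle genes, the Hox genes and the targeted gene. Each is 250 bases before to 50 bases after a RefSeq start (GRCm38.p6), read 5′ to 3′ on the gene's strand. Capitals mark AGGTCA, a nuclear receptor half-site, and CACCTG, an E-box, on either strand. TAATTA, a homeodomain core, was also searched and is in none of these windows.
Ednrb, chr14:103843652-103843951, minus strand: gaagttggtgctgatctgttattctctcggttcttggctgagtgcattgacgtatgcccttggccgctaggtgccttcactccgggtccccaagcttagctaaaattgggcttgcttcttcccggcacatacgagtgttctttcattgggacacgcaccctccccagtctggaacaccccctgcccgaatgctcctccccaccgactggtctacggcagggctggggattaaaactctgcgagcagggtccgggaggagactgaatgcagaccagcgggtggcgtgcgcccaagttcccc
Hoxa5, chr6:52204538-52204837, minus strand: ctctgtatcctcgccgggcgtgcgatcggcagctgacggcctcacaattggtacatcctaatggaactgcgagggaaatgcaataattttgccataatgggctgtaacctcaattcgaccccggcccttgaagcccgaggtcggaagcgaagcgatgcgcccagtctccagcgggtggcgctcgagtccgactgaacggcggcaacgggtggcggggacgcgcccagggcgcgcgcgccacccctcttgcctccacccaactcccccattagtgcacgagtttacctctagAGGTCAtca
Myrip, chr9:120303823-120304122, plus strand: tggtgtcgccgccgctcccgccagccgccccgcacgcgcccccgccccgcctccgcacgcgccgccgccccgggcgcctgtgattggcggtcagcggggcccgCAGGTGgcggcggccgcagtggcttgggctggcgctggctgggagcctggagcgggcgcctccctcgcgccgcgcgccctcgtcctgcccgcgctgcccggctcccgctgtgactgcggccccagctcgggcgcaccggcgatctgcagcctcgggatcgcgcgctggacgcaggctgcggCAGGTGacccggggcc
Unc13c, chr9:73968988-73969287, minus strand: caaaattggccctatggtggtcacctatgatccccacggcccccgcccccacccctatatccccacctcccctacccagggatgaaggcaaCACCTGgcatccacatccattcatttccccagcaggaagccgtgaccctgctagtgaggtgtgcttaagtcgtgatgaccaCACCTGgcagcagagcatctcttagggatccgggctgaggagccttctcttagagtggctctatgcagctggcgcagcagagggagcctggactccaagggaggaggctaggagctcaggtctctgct
The Ednrb window held no match. Hoxa5 held 1 AGGTCA, and Myrip and Unc13c held 2 CACCTG each. Of 32851 promoter windows of the same length, 16.3% held AGGTCA, 20.2% held CACCTG and 5.29% held TAATTA. A match describes the letters and is not a binding site.

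Read segment by segment, more of the shared genes were lower than higher in HSCR mice. In separate edgeR fits of each segment, an unadjusted p under 0.05 was reached by 414 genes higher (2.48%) and 689 lower (4.13%) among 16664 of the proximal colon, and by 150 higher (0.879%) and 300 lower (1.76%) among 17059 of the distal colon. Among the 16210 genes tested in both, 132 passed in both segments, which is 12.4% of the proximal and 30.7% of the distal genes. Of these, 107 were lower in both (0.66%), 25 were higher in both (0.154%) and 0 had opposite signs (0%). Over all genes tested in both, 65.8% had the same sign in the 2 segments. The correlation of the 2 log2 fold changes across genes was 0.556 (Pearson) and 0.467 (Spearman), as a description over genes that share libraries within a segment and are not independent.

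**Figure D2:**
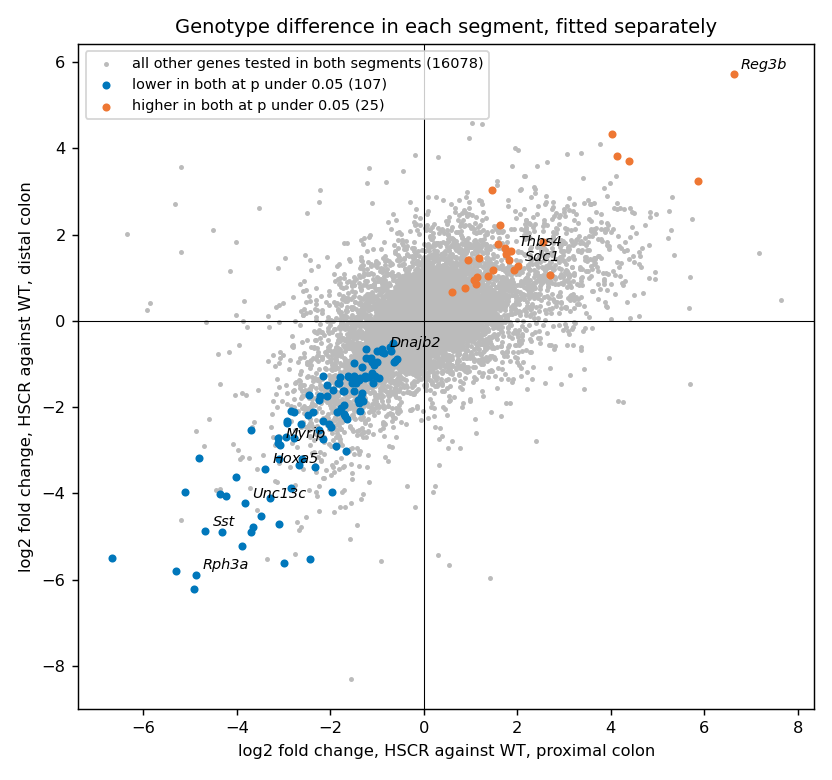
Log2 fold change of HSCR against WT in the proximal colon (x axis) and in the distal colon (y axis), from separate fits, 1 point per gene. The 107 genes lower in both segments and the 25 higher in both, at an unadjusted p under 0.05 in each, are coloured. No gene that passed in both lies in the quadrants of opposite sign.

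Of the 107 genes, those named here were picked after their values were seen, for the most part as genes of neurons or glia. The pick does not describe the cell types of the 107. Only 9 of the 107 belonged to any gene list used here other than the chaperone and Hox lists. Lower in both segments were 0 of 19 enteric neuron genes, 0 of 16 neurofilament and cytoskeletal genes, 1 of 14 glial genes and 2 of 24 synaptic release genes. Of all genes tested in both, 0.66% were. The 107 had a median log2 fold change of -1.87 proximally and -1.94 distally. They were chosen on these values, so the values describe them. Sst, the inhibitory peptide somatostatin, was at -4.68 and -4.88, and Calcb, which encodes beta-CGRP of sensory neurons, at -5.10 and -3.98 in the proximal and distal colon. Cbln2, a secreted synaptic organiser, was at -6.68 and -5.49, and Cntnap2, an adhesion protein of axons, at -3.30 and -4.10. Among receptors, Chrna7 (a nicotinic acetylcholine receptor subunit) was at -4.32 and -4.90, Oprk1 (the kappa opioid receptor) at -4.23 and -4.06, Cnr1 (the CB1 cannabinoid receptor) at -3.11 and -3.21, and Gria4 (an AMPA receptor subunit) at -2.24 and -2.52.

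Calb2 (calretinin, a calcium-binding protein of enteric neurons that pathologists stain for in Hirschsprung disease) was at -2.99 for the proximal and -5.62 for the distal colon. Rims2, a scaffold of the active zone, was at -2.08 and -1.49, and Sv2c, a synaptic vesicle glycoprotein, at -2.79 and -2.71. S100b, a marker of glia, was at -2.78 and -2.12, and Apoe, which is made by glia and by macrophages, at -1.50 and -0.98. Of the 107 genes, 105 were protein-coding. Their median genomic span was 60.7 kb, against 24.5 kb over all 15382 protein-coding genes tested and 21.9 kb for those higher in both.

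Levels in single libraries set these values beside the amount of neuronal RNA in each library. A set of 3 HSCR libraries, replicates 3 and 4 of the proximal colon and the library labelled distal replicate 1, held neuronal RNA at 5.93, 5.75 and 5.52 log2 CPM over the 19 enteric neuron genes. WT proximal replicates 1 and 2 stood at 4.70 and 5.71, and WT distal replicate 2 at 3.96. Elavl4, a neuronal RNA-binding protein, was accordingly at 48.4, 40.2 and 42.2 CPM in the 3 HSCR libraries and at 31.8, 72.4 and 22.8 CPM in the 3 WT libraries. WT distal replicate 4, whose list mean of 6.26 was nearer than 3.96, was left out, with Elavl4 at 73.9 CPM. Its levels of the genes that follow were given above.

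In the same 3 HSCR libraries Unc13c was at 1.91, 3.11 and 1.37 CPM, against 22.6, 33.6 and 27.2 CPM in the 3 WT libraries. Rph3a was at 1.47, 0.537 and 0.0572 CPM against 21.4, 17.3 and 15.7 CPM, and Hoxa5 at 32.6, 15.2 and 6.61 CPM against 57.03, 145 and 30.9 CPM. The libraries were set side by side after their values were seen, so no test was made on them. Unc13c, Rph3a and Hoxa5 were chosen as low in HSCR libraries over all 16, these included, so their low levels here are not separate evidence. With the mean of the neuron list as a term in the fit, the log2 fold change was -3.51 for Unc13c, -4.41 for Rph3a, -3.13 for Myrip and -2.27 for Hoxa5, with edgeR adjusted p-values of 0.351 to 0.713, and the count of genes lower in both segments went from 107 to 14.

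**Figure D3:**
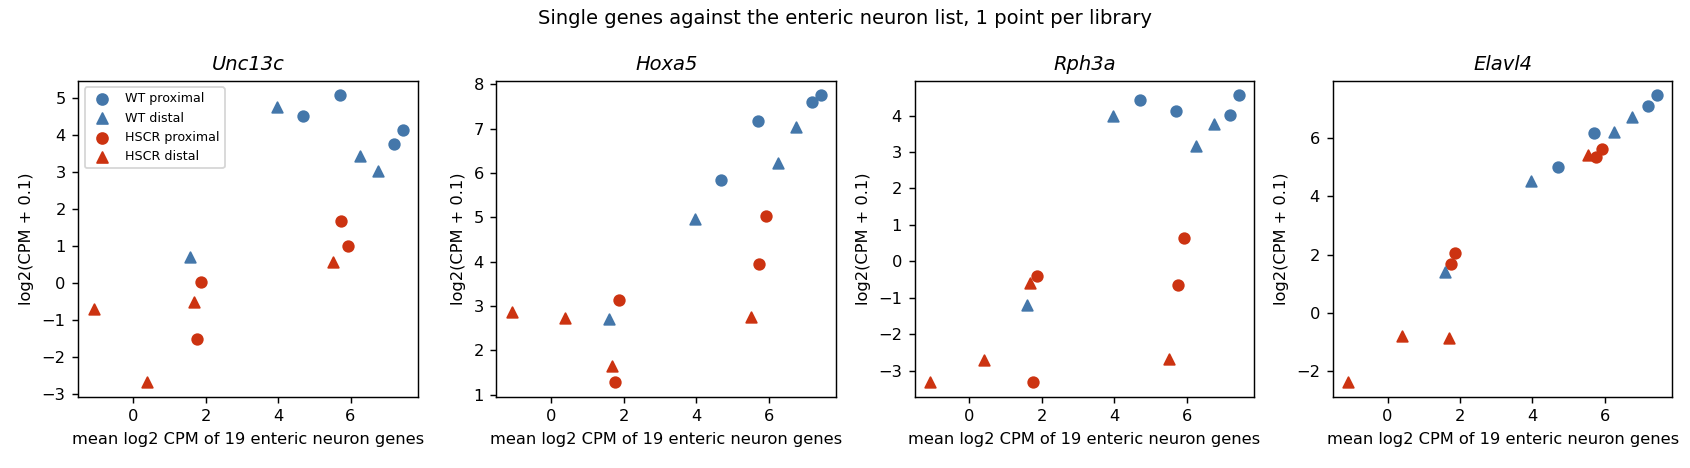
Level of Unc13c, Hoxa5, Rph3a and Elavl4 (log2 of CPM plus 0.1) against the mean log2 CPM of 19 enteric neuron genes, 1 point per library. For Elavl4, itself in the list, libraries of both genotypes with like means lie close together, while the 3 HSCR libraries with list means of 5.52 to 5.93 lie below WT libraries of like mean for Unc13c, Hoxa5 and Rph3a. Unc13c, Hoxa5 and Rph3a were chosen as low in HSCR libraries, these included.

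Gene lists set these differences out by function, and 0 genes of any list reached an adjusted p under 0.05. The counts at an unadjusted p under 0.05 are to be read against 5.52% of all genes lower and 5.33% higher, and those by sign against 5024 of 18619 genes lower and 7139 higher in both segments. Of 24 genes of synaptic release, 16 were lower and 0 higher at an unadjusted p under 0.05, with a median log2 fold change of -1.52 against 0.08 over all genes tested, and 23 were lower in both segments by sign. Rims2 was at -1.76, Sv2c at -2.71, Syn2 (synapsin II) at -1.96 and Stx1a (syntaxin 1A) at -1.53 on this scale, with edgeR adjusted p-values of 0.165 to 0.268. Of 12 genes of cholinergic transmission, 5 were lower and 0 higher, and the median was -1.70. Chat, the enzyme that makes acetylcholine, was at 0 CPM in 6 HSCR libraries and at most at 0.827 CPM in the other 2, with 0 to 14.9 CPM in WT libraries. Slc5a7, the choline transporter, and Slc18a3, which loads acetylcholine into vesicles, had log2 fold changes of -3.04 and -3.54 (adjusted p = 0.339 and 0.346).

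Of 19 enteric neuron genes, 7 were lower and 0 higher, with a median of -1.59. Snap25, a SNARE protein, was at 113 CPM (median of 8 libraries) in WT and 7.95 CPM in HSCR mice, with ranges that overlapped. Of 16 neurofilament and cytoskeletal genes, 5 were lower and 0 higher (median -1.44), among them Mapt (tau) and Map2 at -2.16 and -1.76. Of 20 neuropeptide genes, 5 were lower and 1 higher (median -0.97). Nxph2 had no count in HSCR libraries and a WT mean of 1.88 CPM, at least 21.6-fold above the floor of 3 counts, and Nmu (neuromedin U) had a log2 fold change of -4.86 (adjusted p = 0.282).

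Of 14 glial genes, 8 were lower and 0 higher (median -1.14, with -1.59 for the proximal and -0.81 for the distal colon). Entpd2, the ectonucleotidase of enteric glia, was at 33.98, 33.0, 59.7 and 47.2 CPM in WT proximal and 8.07, 14.1, 20.1 and 12.7 CPM in HSCR proximal libraries. In the distal colon it was at 13.3, 18.1, 37.8 and 33.3 CPM in WT and 20.2, 11.7, 10.8 and 12.3 CPM in HSCR libraries, where the groups overlapped. S100b, Sox10 (the transcription factor of crest cells and glia) and Gas7 had log2 fold changes of -2.45, -1.75 and -1.54, with adjusted p-values of 0.172 to 0.282. The glial list mean was 5.16 to 5.70 log2 CPM in WT proximal and 2.68 to 4.40 in HSCR proximal libraries, which did not overlap, and 3.86 to 5.44 in WT distal against 1.88 to 4.70 in HSCR distal libraries.

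Of 19 transcription factors of the enteric nervous system, 6 were lower and 0 higher (median -0.75). Beside Hoxb5 these included Zeb2, mutated in a syndromic form of Hirschsprung disease, at -1.61 ± 0.46, and Ebf3 at -1.32 ± 0.39 (SE, adjusted p = 0.244 and 0.258). Within the Ret and GDNF family, which signals to the same crest cells, 1 of 8 genes was lower and 0 were higher. That gene, the co-receptor Gfra1, was at -2.02 ± 0.67 (adjusted p = 0.305), and Ret itself was at -1.35 ± 0.95 (adjusted p = 0.633). In the endothelin system, 1 of 7 genes passed at an unadjusted p under 0.05, a count too small to set against the share of all genes. Ednra, the sister receptor, was higher, at 0.94 ± 0.40, with 0.93 for the proximal and 0.96 for the distal colon (adjusted p = 0.429), while the ligand Edn3 was at -0.36 ± 0.46 (adjusted p = 0.823).

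**Figure D4:**
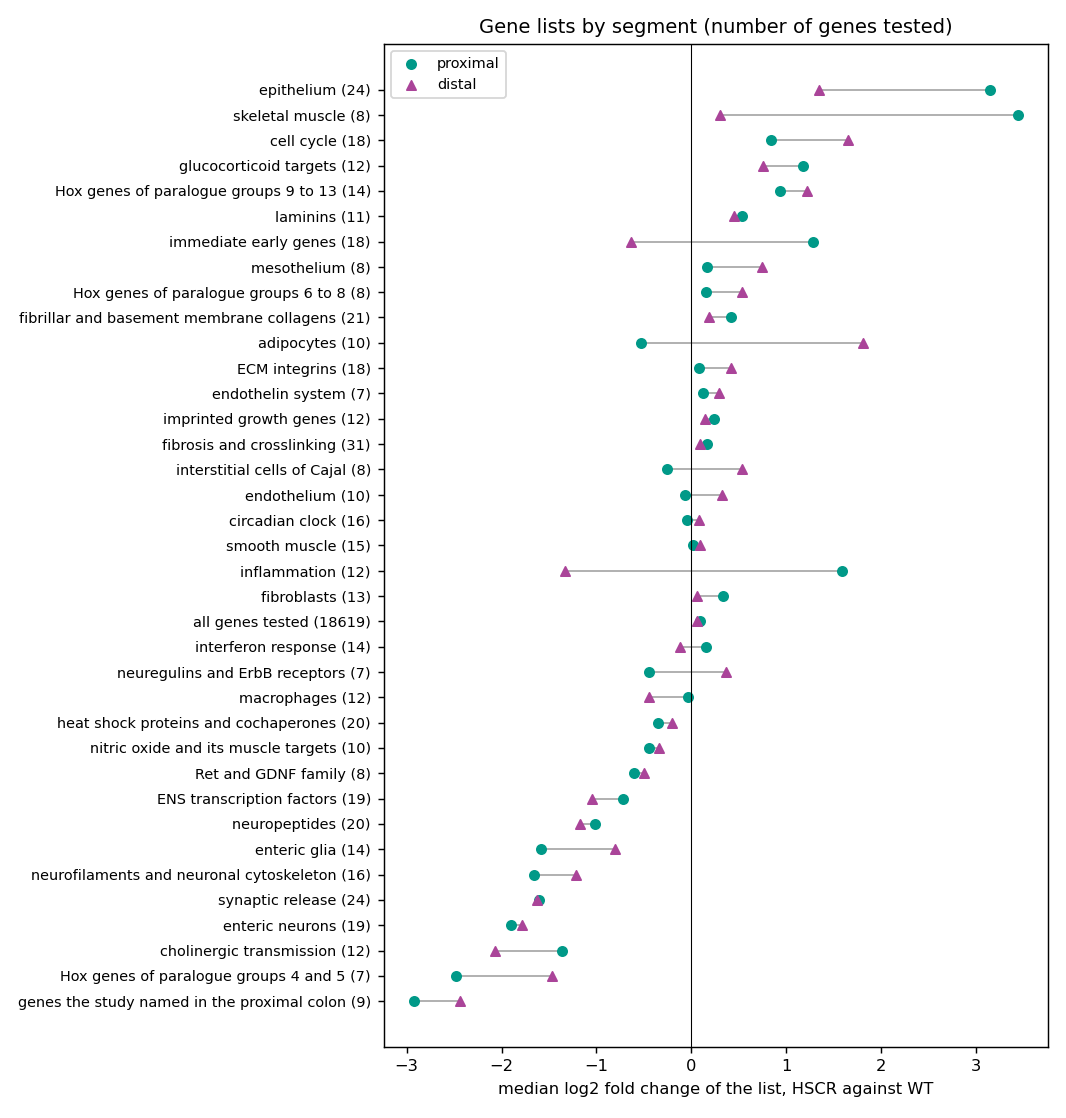
Median log2 fold change (HSCR against WT) of each gene list in the proximal (circles) and distal (triangles) colon, with the number of genes tested. Lists of synaptic, neuronal, cholinergic and glial genes have negative medians in both segments, smooth muscle and fibroblast lists lie near 0, and epithelium, cell cycle and glucocorticoid target lists have positive medians in both.

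Hox genes were read by paralogue group after Hoxa5 and Hoxb5 had been seen, so the groups are descriptive. Of 7 genes of groups 4 and 5, 4 were lower and 0 higher at an unadjusted p under 0.05, and 6 were lower in both segments by sign. Hoxc4 was at 5.35, 9.62, 10.3 and 13 CPM in WT proximal and 0.825, 1.02, 0.827 and 0.322 CPM in HSCR proximal libraries, and its log2 fold change was -3.08 ± 0.57 (SE, edgeR adjusted p = 0.107). Hoxa4 was at -1.82 ± 0.41 (adjusted p = 0.165). Of 6 genes of groups 1 to 3, 2 were lower, and of 8 genes of groups 6 to 8, 0 differed in either direction. Of 14 genes of groups 9 to 13, 3 were higher and 0 lower (median 1.04), namely Hoxa9 at 1.10, Hoxd11 at 0.81 and Hoxd10 at 1.19 (adjusted p = 0.353 to 0.444). Hoxa9 was close to 0 in the proximal colon (0.07 ± 0.41) and at 2.13 ± 0.43 in the distal colon. Hoxd13 was at 0.904 to 23.9 CPM in WT proximal libraries and at 0.643 to 2.49 CPM in HSCR proximal libraries other than replicate 1. Whether the genotypes were sampled at the same position along the colon was not tested, so position and genotype are not told apart for Hox genes. Hox genes overlap and are transcribed in clusters, and which library type was counted with which strand setting is not given in the sources used here, so reads of neighbouring and antisense transcripts may be included.

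Heat shock proteins and their cochaperones were likewise listed after Dnajb2 had been seen. Of 20 genes, 6 were lower and 0 higher at an unadjusted p under 0.05, with a median of -0.25. Dnaja1, which works with Hsp70, was at 198 to 284 CPM in WT and 120 to 171 CPM in HSCR libraries, without overlap, and had a log2 fold change of -0.64 ± 0.14 (SE, edgeR adjusted p = 0.165). Hsph1 was at -0.92 ± 0.23 (adjusted p = 0.172).

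Genes whose 8 HSCR libraries all lay below or all above the 8 WT libraries were few. There were 15 below (0.0806%) and 6 above (0.0322%). Beside Dnajb2 and Dnaja1, those below included Tmod2, a neuronal tropomodulin, at 60.2 to 172 CPM in WT and 12.9 to 58.5 CPM in HSCR libraries. Lpar1, a lysophosphatidic acid receptor, was at 132 to 222 CPM and 56.3 to 116 CPM. Hr, a nuclear receptor corepressor, was at 45.7 to 88.5 CPM and 20.8 to 45.5 CPM. When libraries were compared only within their segment, 28 genes were lower (0.15%) and 14 higher (0.0752%) without overlap in both segments, and 2 were separated in opposite directions.

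The genes higher in HSCR mice did not come as near to the threshold. By the same ranking, the 5 protein-coding genes with the smallest p were Thbs4, Zfand1, Aph1a, Igbp1 and Frk, with adjusted p-values of 0.165 to 0.172. Thbs4 (thrombospondin 4, chr13:92888098-92931326), a matrix glycoprotein also used as a marker of interstitial cells of Cajal, was at 9.79, 15.1, 9.47 and 6.44 CPM in WT proximal and 45.99, 18.5, 60.1 and 26.4 CPM in HSCR proximal libraries. In the distal colon it was at 23.9, 10.01, 18.6 and 12.8 CPM in WT and 45.1, 28.7, 114 and 17.4 CPM in HSCR libraries, where the lowest HSCR library overlapped WT. The mean was 3.36-fold higher, at 13.3 ± 5.71 CPM in WT and 44.6 ± 31.9 CPM in HSCR mice (SD, n = 8 libraries each), and the log2 fold change was 1.77 ± 0.37.

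Zfand1 (chr3:10405013-10416377), a zinc finger protein of stress granule clearance, was at 9.15 to 17.0 CPM in WT and 17.99 to 29.3 CPM in HSCR libraries, and Aph1a (chr3:95801281-95805600), a subunit of gamma-secretase, was at 36.7 to 54.5 and 56.99 to 98.2 CPM. Neither overlapped. Igbp1 (chrX:99537897-99559731), a regulator of protein phosphatase 2A, was at 33.7 to 60.1 and 46.1 to 102 CPM, with overlap. Frk (chr10:34359395-34487274), a Src-family kinase of epithelial cells, was at 5.77 to 19.9 and 14.0 to 47.3 CPM, with overlap between but not within segments.

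**Figure D5:**
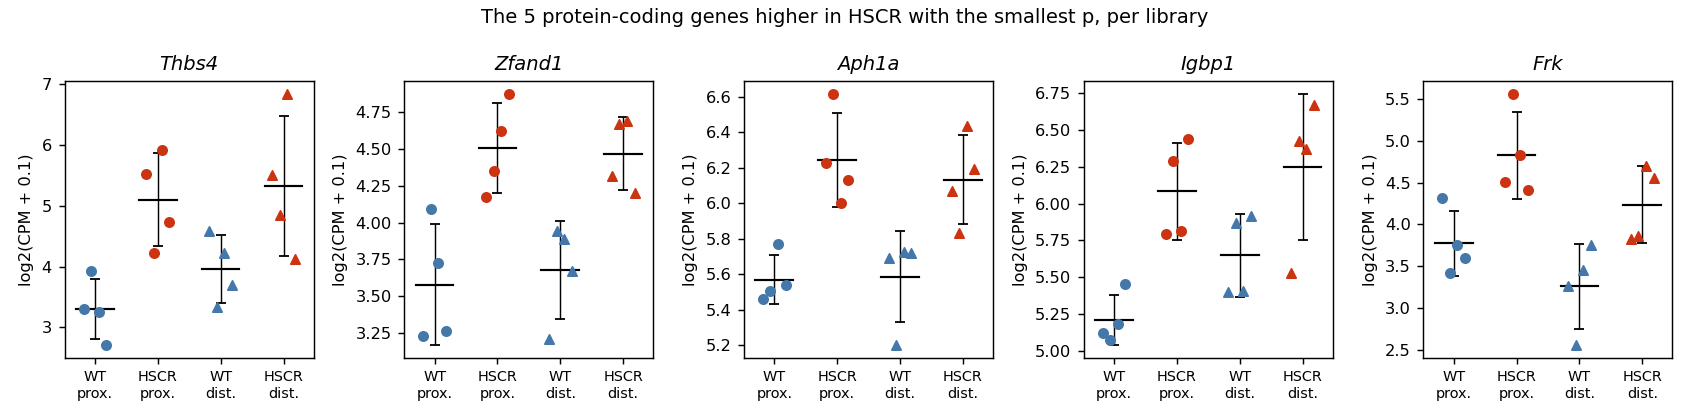
Level of the 5 protein-coding genes higher in HSCR mice with the smallest p, as log2 of CPM plus 0.1, in each of the 4 libraries per group (blue WT, red HSCR, circles proximal, triangles distal), with mean and SD of 4 libraries. For Zfand1 and Aph1a all 8 HSCR libraries lie above all 8 WT libraries.

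Of the 25 genes higher in both segments, 21 were protein-coding, and the median log2 fold change was 1.74 proximally and 1.47 distally. Reg3b, an antibacterial lectin of the epithelium, was at 6.63 and 5.72. Sdc1 (syndecan-1, an epithelial and plasma cell heparan sulfate proteoglycan) was at 2.02 and 1.27, Cxadr (a junctional adhesion receptor) at 2.56 and 1.82, Slc26a2 (a sulfate transporter) at 1.45 and 3.03, and Cyp3a13 (a gut and liver cytochrome) at 5.87 and 3.25. The glutathione transferases Mgst1 and Mgst3 were at 1.59 and 1.74 in the proximal and at 1.78 and 1.70 in the distal colon. H2-T23, a class Ib MHC molecule, was at 10.2 to 26.8 CPM in WT and 27.5 to 195 CPM in HSCR libraries, without overlap.

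Genes of the epithelium, a layer that the dissection is meant to leave behind, were counted in most libraries. Of 24 genes of the epithelium list, 5 were higher and 0 lower at an unadjusted p under 0.05, 23 were higher in both segments by sign, against 7139 of 18619 genes tested, and the median log2 fold change was 2.13. The smallest adjusted p was 0.346. Muc2, the mucin of goblet cells, was at 55.8, 4.87, 0.142 and 0 CPM in WT proximal and 64.5, 1032, 639 and 18.8 CPM in HSCR proximal libraries, so that WT proximal replicate 1 lay among the HSCR libraries. Its distal levels were 43.8, 4.04, 36.5 and 5.75 CPM in WT and 18.8, 67.5, 441 and 10.3 CPM in HSCR libraries, which overlapped. The list mean was -2.10 to 6.26 log2 CPM in WT proximal and 2.71 to 9.16 in HSCR proximal libraries, and 2.19 to 5.50 in WT distal and 1.63 to 7.42 in HSCR distal libraries. With this mean as a term, the log2 fold change of Thbs4 was 1.39, of Zfand1 0.91, of Aph1a 0.55, of Igbp1 0.81 and of Frk 0.79, and the counts of genes lower and higher in both segments went from 107 and 25 to 29 and 12.

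Of 12 glucocorticoid target genes, 4 were higher and 0 lower (median 1.13), with Pdk4 at 1.28, Sgk1 at 1.31, Cdkn1a at 1.08 and Fkbp5 at 1.57 (edgeR adjusted p = 0.308 to 0.429). They were at 1.42, 0.57, 0.67 and 1.31 with the epithelium list mean as a term. The cell cycle list had a median of 1.28. All 18 cell cycle genes were higher in both segments by sign, but only Mki67 had an unadjusted p under 0.05, and its level of 2.96 to 66.0 CPM in WT and 3.57 to 248 CPM in HSCR libraries overlapped. Among 31 genes of fibrosis and crosslinking, 1 was higher and 2 were lower, close to the 5.33% and 5.52% of all genes. The higher gene, Lox, which crosslinks collagen, was at 37.5 to 96.8 CPM in WT and 34.5 to 162 CPM in HSCR libraries, with a log2 fold change of 1.02 ± 0.27 (adjusted p = 0.197). Of 21 fibrillar and basement membrane collagens 0 were higher and 3 lower, and of 11 laminins 1, Lamb3 at 2.91, was higher and 0 were lower, counts too small to set against the share of all genes. With the epithelium list mean as a term, the log2 fold change was 0.27 for Lamb3 and 1.13 for Lox. Of 15 smooth muscle genes and of 10 endothelial genes, 0 differed in either direction.

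Among the 9 genes tested that the study had named in the proximal colon, 6 were lower and 2 higher at an unadjusted p under 0.05. They were chosen on 8 of these libraries, so their direction is not independent evidence. In both segments Slc17a6, the vesicular glutamate transporter VGLUT2, was at 0 CPM in all HSCR libraries but 1, which held 0.221 CPM, against 0 to 10.2 CPM in WT libraries. Col9a2, a chain of collagen IX, was at 57.9, 62.0, 113 and 96.1 CPM in WT proximal and 11.5, 7.39, 13.01 and 11.4 CPM in HSCR proximal libraries. It was at 7.11, 30.4, 81.4 and 59.4 CPM in WT distal and 22.8, 0.969, 0.971 and 3.30 CPM in HSCR distal libraries, where the library labelled HSCR distal replicate 1 overlapped WT, and its log2 fold change was -2.80 ± 0.62 (adjusted p = 0.165). Vcam1, an adhesion molecule, was at 9.20 to 35.2 CPM in WT and 5.26 to 12.8 CPM in HSCR libraries.

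The neighbourhood of the targeted locus was read separately, since the line carries the flanks of its allele. Of 37 genes tested within 10 Mb of the start of Ednrb, 4 were lower (10.8%) and 1 was higher (2.70%) at an unadjusted p under 0.05, and 0 reached an adjusted p under 0.05 in edgeR. Over all genes tested, 5.52% were lower and 5.33% higher. The share lower was 6.90% within 5 Mb and 7.41% within 20 Mb, and the counts are too small to set against the share of all genes. The 4 were Slitrk5, which is a synaptic adhesion protein, Kctd12, Tbc1d4 and an unnamed gene. Slitrk5 was at 1.14 to 14.3 CPM in WT and 0.54 to 2.37 CPM in HSCR libraries. The part of the locus or of the cell makeup in these values was not tested.

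The genotype difference was not shown to depend on the segment. The interaction of genotype with segment reached an adjusted p under 0.05 for 0 of 18619 genes (0%) with edgeR, and 269 had an unadjusted p under 0.05 (1.44%). DESeq2 called 6 genes, the likelihood ratio test 3 and limma-voom 0, and the fit with 4 unwanted factors 334.

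How many genes passed depended on which libraries were in the fit. Without WT distal replicate 1, the library with little neuronal RNA, 11 genes were called lower and 0 higher, namely Hoxa5, Myrip, Hoxc4, Unc13c, Hoxb5, Rph3a, Rcan2, Gramd1b, Slc17a6, Cbln2 and Rnd2 (edgeR adjusted p = 0.0253 to 0.0497). Without this library and the library labelled HSCR distal replicate 1, a choice made after seeing the data, 40 were called lower and 0 higher. Without the latter alone, 0 were called and the count lower in both segments was 240.

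Library names with PO or DI cover 2 libraries of each group, and the other 8 libraries carry names of 2 further forms. One form is found only in 3 proximal libraries and the other in 1 proximal and 4 distal libraries, so that within the other 8 the name form and the segment cannot be fully told apart. Each PO name shares its number with a DI name of the same genotype, and also with a PO and a DI name of the other genotype. The sources used here do not say what the names stand for. Xist was at 0 CPM in every library named with PO or DI, and all libraries with Xist above 1 CPM had other names. HSCR proximal replicates 1 and 2, HSCR distal replicate 1 and WT distal replicate 1, described above for Hoxd13, epithelium or low neuronal RNA, all had PO or DI names. Name form, sex and these libraries were not told apart. In the 8 libraries named with PO or DI, 0 genes were called (edgeR, 0.922 coefficient of variation), and in the other 8 libraries 21 were called higher and 399 lower (0.537). On the log2 scale of CPM the difference was -4.31 and -4.13 for Unc13c, -2.99 and -3.52 for Hoxa5, -3.57 and -2.38 for Myrip, and 1.24 and 1.94 for Thbs4, in the PO or DI libraries and in the others. For Drd2 it was -2.36 and -6.94, for Sst -2.98 and -7.35, and for Elavl4 -2.27 and -5.20.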

How the data were processed

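Longitudinal muscle and myenteric plexus of 16 colon samples was sequenced as poly-A RNA. Per the labels and the study's methods, the authors aligned reads with HISAT2 2.2.1 to mm39 and counted them per GENCODE gene with featureCounts 2.0.6. The deposited table holds raw counts and the authors' FPKM values for each library, beside columns of the authors' comparisons (fold changes, p-values), which were left aside. Strand setting and replicate origin are not given in the sources used here.

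Counts of 18619 genes that passed filterByExpr, of 56748, were scaled by TMM and fitted in edgeR 4.0.16 (R 4.3.3) by quasi-likelihood with segment and genotype as terms, and p-values were adjusted by Benjamini-Hochberg over all genes tested. A gene was called at an adjusted p under 0.05. Each segment was also fitted alone, and the interaction was tested in a 4-group model. Log2 CPM used a prior count of 0.5. FPKM means are given only to compare genes. Alternatives used limma 3.58.1, DESeq2 1.42.0, unwanted-variation factors, other scalings and filters, added terms and left-out libraries. The fit was run on simulated data without segment differences or paired libraries. Recovery was required only at a spread far smaller than in these data, so this does not show how many differences were missed.

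Named genes were Ednrb, the 5 protein-coding genes with the smallest p in each direction and the same sign in both segments, and up to 4 members of each list with the smallest p. The lists, their members and the comparison were chosen with earlier results of these data known, and the chaperone and Hox lists, the genes named for non-overlapping libraries, those named among the shared genes and near Ednrb were chosen after their values were seen. Floors cover counting error only, whereas SE and SD include the spread between libraries. Promoter windows come from RefSeq on GRCm38.p6, whereas gene coordinates are those of the deposited table on mm39.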

Additional observations from a re-analysis of the deposited data

Results flagged for a closer look

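Within groups of 4 libraries, 8 values of 104 groups examined lay far from the other 3 by Dixon's gap, which chance alone gives in about 1 in 20 groups. Of single genes, Hoxa5 was at 1.62 log2 CPM in HSCR distal replicate 2 against 2.72 to 2.84 in the other 3. Drd2 was at -4.54 in the library labelled HSCR distal replicate 1 against -6.12, the value of no count, in the others, and Aph1a was at 5.20 in WT distal replicate 2 against 5.69 to 5.72. Of cell type lists, genes of interstitial cells of Cajal averaged 3.47 log2 CPM in HSCR proximal replicate 2 against 5.47 to 5.82. The mesothelium list was at -0.918 in HSCR proximal replicate 2 against 4.06 to 4.99, and at -0.763 in HSCR distal replicate 2 against 4.63 to 4.97. Red blood cell genes were at 2.18 in WT proximal replicate 3 against 3.36 to 3.42, and skeletal muscle genes at 6.09 in WT distal replicate 1 against 0.861 to 1.45. The skeletal muscle list was also high in HSCR proximal replicate 1, at 7.20, and in HSCR distal replicate 2, at 6.18, which were not flagged.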

How the results depend on the processing

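With adjusted p under 0.05, the counts of genes higher and lower were 36 and 137 with the edgeR likelihood ratio test (173 with the same sign in both segments), 100 and 290 with DESeq2 (390), 161 and 583 with limma-voom quality weights (743), 160 and 304 with 1 unwanted factor (464) and 1332 and 1255 with 4 (2505), where Ednrb was at -1.07. At an adjusted p under 0.1 they were 0 and 8 (8). With the replicate block they were 0 and 1 (1), with the library series as a term 0 and 2 (2), with the name scheme 0 and 2 (2), and with the neuron list as a term 1 and 0 (1). Genes lower, higher and opposite in both segments at an unadjusted p under 0.05, against 107, 25 and 0, were 182, 44 and 1 with the likelihood ratio test, 249, 60 and 2 with DESeq2, 180, 11 and 0 with limma-voom, 572, 104 and 4 with quality weights, 203, 68 and 15 without a filter, 29, 12 and 1 with the epithelium term, and 14, 12 and 2 with the neuron term. Genes higher in both numbered 42 with the replicate block and 52 with the series term. Interaction genes numbered 3, 6, 3 and 334 with the likelihood ratio test, DESeq2, 1 and 4 unwanted factors.

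Leaving out 1 replicate at a time gave 0 to 11 genes lower (11 without WT distal replicate 1, 1 without HSCR distal replicate 2), 0 to 11 with the same sign, and 51 to 240 lower, 11 to 42 higher and 0 to 2 opposite in both segments. Lower in both were 51 without WT distal replicate 3, 61 without WT proximal replicate 3, 63, 69 and 240 without HSCR distal replicates 3, 4 and 1, 70 without WT distal replicate 4 and 177 without WT distal replicate 1. Higher in both were 11 and 42 without HSCR distal replicates 3 and 2, 14 and 16 without WT proximal replicates 3 and 4, and 15 without WT distal replicate 2. Without HSCR proximal 1 and HSCR distal 1 the counts in both segments were 171, 42 and 3. Chosen after seeing the data, fits without WT distal 1 and HSCR distal 1 called 40 lower (40 with the same sign), with 307 and 54 in both segments, and fits without HSCR proximal 1 as well called 3 lower (3), with 219, 73 and 1, and 1 interaction gene. The libraries with PO or DI names alone gave 11, 6 and 6 in both segments, and the other libraries alone called 21 higher and 399 lower (420), with 917, 85 and 14, and 132 interaction genes. Near Ednrb, 3 genes passed within 5 Mb and 9 within 20 Mb, against 5 within 10 Mb.

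Of 2833 values of 71 named genes, 8 changed sign: Cldn7 (-0.0795) and Krt18 (-0.0022) with the epithelium term, Ednrb (0.15) and Ret (1.01) with the neuron term, Sv2c (0.056), Nmu (0.29) and Ret (0.88) in the PO or DI libraries, and Cartpt (-0.17) in the others. The causes were not tested. Same-numbered libraries correlated at -0.214 to 0.424 over 24 pairs, 12 of them over 0.1, and 7 of 16 libraries correlated best with their own number. These pairs include pairs of different genotype, which cannot be 1 animal. Between the proximal and distal libraries of 1 genotype and number, replicates 1 to 4 correlated at 0.417, 0.0959, 0.275 and 0.165 in WT mice. In HSCR mice these correlations were 0.000134, 0.287, 0.107 and 0.358. With such pairs as blocks in limma-voom, the block correlation was 0.234. The median was 0.101 for same-numbered pairs against -0.00926 for others. The main fit did not pair the samples. HSCR proximal replicate 4 held Xist at 80.85 and Ddx3y at 0.1432 CPM, against 0.1383 and 149.6 CPM in HSCR distal replicate 4. This HSCR pair differs in sex and cannot be 1 animal as labelled. WT proximal replicate 4 held Xist at 0 and Ddx3y at 79.22 CPM, against 229.6 and 15.99 CPM in WT distal replicate 4. This WT pair is not RNA of 1 animal alone. The blocks above included both pairs. For the other pairs of 1 genotype and number, a shared animal is not excluded. Counts in both segments were not run for the unwanted-factor fits. Depth limits genes near 0 counts, such as Drd2 and Nxph2.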

Other observations

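Cartpt, a neuropeptide of enteric neurons, was spread more widely than the genotypes were apart. It was at 7.31, 21.04, 33.95 and 61.5 CPM in WT proximal libraries and at 4.60, 5.89, 234 and 242 CPM in HSCR proximal libraries. In the distal colon it was at 1.10, 2.42, 12.02 and 7.96 CPM in WT and at 379, 5.55, 2.40 and 0.668 CPM in HSCR libraries. The 3 HSCR libraries with the most neuronal RNA, proximal replicates 3 and 4 and the library labelled distal replicate 1, were thus above every WT library, and the other 5 lay within the WT range or below it. Its log2 fold change was 3.00 ± 1.23 (SE, edgeR adjusted p = 0.412), and an exact permutation within segments gave p = 0.595. With the neuron list as a term it was the 1 gene called (3.87, adjusted p = 0.0051).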
